A study of Mus musculus with 38 samples.

Results

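Growth hormone acts on the liver through a cell-surface receptor, and the genes of that axis were followed here in livers that lacked the insulin receptor, or the insulin receptor together with the transcription factor FoxO1. The 9 genes Igf1, Igfals, Ghr, Jak2, Stat5a, Stat5b, Socs2, Cish and Socs3 were chosen by name, with earlier results of these data known. Each was read from the array probe with the highest mean signal among its probes. All 9 were measured, of 22485 named genes on the array. The mice were males, 11 to 12 weeks of age, of a mixed background of FVB/N and C57Bl/6, and had 1 of 4 genotypes. LIRFKO mice carried floxed insulin receptor and floxed FoxO1 alleles with albumin-Cre, which deletes in hepatocytes, and LIRKO mice carried floxed insulin receptor alleles with albumin-Cre. IR/FoxO1 floxed and IR floxed mice were their Cre-free floxed controls. Each was studied 6 h after refeeding, 60 min after glucose, or fasted, a state that the labels describe both as overnight and as 24 h. LIRFKO and LIRKO livers numbered 4 refed, 3 glucose and 3 fasted of each genotype. IR/FoxO1 floxed livers numbered 3 refed and 3 fasted, and IR floxed livers 4 refed, 3 glucose and 4 fasted. Each title carries its own mouse number, so replicates were separate mice. In the titles IRF.KO, IR.KO, IRF.fl and IR.fl stand for the 4 genotypes in the order above and GTT for glucose, and single libraries are named by them. Each library was 1 dye channel of a two-colour Agilent array. The RNA came from whole liver, in which cells other than hepatocytes keep both genes, so fewer cells of a type and less RNA per cell cannot be told apart.

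Pituitary growth hormone binds the receptor encoded by Ghr, which activates the kinase JAK2 and through it the transcription factors STAT5A and STAT5B. In hepatocytes this pathway drives Igf1, which supplies most of the circulating growth factor, and Igfals, the acid-labile subunit that holds IGF1 in a large serum complex. SOCS2, CISH and SOCS3 are feedback inhibitors that the pathway itself induces, and SOCS3 is also induced by cytokines of the IL6 family. FoxO1 is a forkhead factor that insulin signalling keeps out of the nucleus.

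The deleted genes followed the labels with 1 exception. Insr was between 5.96 and 6.81 log2 in the LIRFKO libraries and between 6.30 and 7.80 in the LIRKO libraries, and within each state every LIRKO library lay below every IR floxed library. Foxo1 was between 6.07 and 7.12 in LIRFKO libraries and between 9.16 and 10.58 in LIRKO libraries. The fasted IR/FoxO1 floxed library titled IRF.fl_Fast_523 had Foxo1 at 6.77, within the LIRFKO range. Its Insr, at 6.90, lay just above the LIRFKO range and within the LIRKO range. This library remained with its labelled group. The differences of Igf1, Igfals and Ghr given below that rest on it are also given without it, and those of the other members are not. The labels of 1 further library, IRF.KO_GTT_724, contradict each other on treatment, and it entered no comparison.

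Igf1, the liver's endocrine output, separated LIRKO livers from all others. Its log2 signal was 13.77, 13.69, 13.50 and 14.26 in refed LIRFKO livers, 10.73, 11.21, 10.95 and 11.80 in refed LIRKO livers, 13.80, 13.67 and 13.74 in refed IR/FoxO1 floxed livers and 12.97, 14.04, 14.20 and 14.14 in refed IR floxed livers. After glucose it was 13.59, 13.70 and 14.12 in LIRFKO livers, 11.84, 11.24 and 11.25 in LIRKO livers, and 13.93, 13.47 and 13.83 in IR floxed livers. Fasted livers had 13.66, 13.43 and 13.33 in LIRFKO, 10.86, 12.05 and 10.67 in LIRKO, 13.26, 13 and 12.94 in IR/FoxO1 floxed and 13.34, 13.19, 13.69 and 13.90 in IR floxed mice. No LIRKO library reached the lowest library of any other genotype. The share of all genes whose groups separate was not computed, here or for the separations of groups given below. The 3 LIRKO group means lay between 11.17 and 11.45, and the means of the other 8 groups lay between 13.07 and 13.84. The lowest of those, fasted IR/FoxO1 floxed livers, reached 13.26 at most and did not overlap with the next, fasted LIRFKO livers, at 13.33 and above, while all higher neighbours overlapped.

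**Figure D1:**
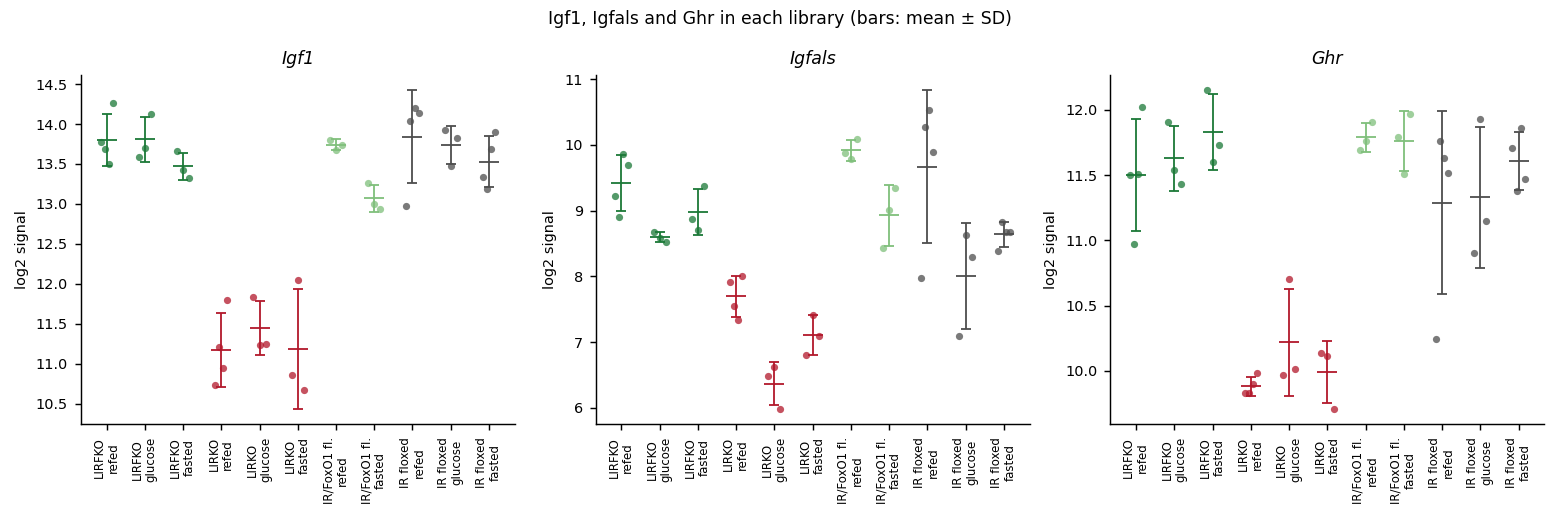
Log2 signal of Igf1, Igfals and Ghr (vertical axes) in every library of the 11 groups (horizontal axis, genotype and state; IR/FoxO1 fl. is IR/FoxO1 floxed), 1 point per mouse, with the group mean and SD as bars. The LIRKO groups are lowest for all 3 genes, with Igf1 means between 11.17 and 11.45, and 1 refed IR floxed point (IR.fl_Refed_566) lies apart from its group at 12.97 for Igf1 and 10.24 for Ghr.

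Igfals and Ghr were lowest in LIRKO livers too. Igfals was 9.23, 8.91, 9.86 and 9.69 in refed LIRFKO livers, 7.92, 7.55, 7.34 and 8.0 in refed LIRKO livers and 7.98, 10.27, 10.54 and 9.90 in refed IR floxed livers. The refed LIRKO and IR floxed groups overlapped through IR.fl_Refed_566 alone, at 7.98. Fasted Igfals was 8.88, 8.70 and 9.37 in LIRFKO, 6.81, 7.42 and 7.09 in LIRKO and 8.38, 8.83, 8.67 and 8.67 in IR floxed livers, and after glucose it was 8.67, 8.59 and 8.53 in LIRFKO, 6.49, 6.62 and 5.99 in LIRKO and 7.09, 8.63 and 8.30 in IR floxed livers. In neither state did the LIRKO libraries overlap with those of the other genotypes. The lowest Igfals mean was that of glucose-treated LIRKO livers (6.37 ± 0.33, SD, n = 3) and the highest that of refed IR/FoxO1 floxed livers (9.92 ± 0.16, SD, n = 3). The glucose-treated LIRKO values lay near 6.174, the median of the gene means. How far such low signal compresses differences from that group was not tested.

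Ghr, which encodes the growth hormone receptor, was 11.50, 10.97, 11.51 and 12.02 in refed LIRFKO livers, 9.83, 9.83, 9.90 and 9.98 in refed LIRKO livers and 10.24, 11.76, 11.63 and 11.52 in refed IR floxed livers. It was 12.15, 11.60 and 11.73 in fasted LIRFKO livers, 10.14, 10.11 and 9.71 in fasted LIRKO livers and 11.71, 11.38, 11.86 and 11.47 in fasted IR floxed livers. After glucose it was 11.91, 11.54 and 11.43 in LIRFKO livers, 9.97, 10.70 and 10.01 in LIRKO livers and 10.90, 11.93 and 11.15 in IR floxed livers. The LIRKO libraries did not overlap with LIRFKO or IR floxed libraries in any state, but 1 glucose-treated LIRKO library (10.70) came close to the lowest IR floxed library (10.90). For Igfals and Ghr too, the share of all genes that separate in this way was not computed. The 8 other group means lay between 11.29 and 11.83 and neighbouring groups overlapped.

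Because Igf1, Igfals and Ghr moved together, the 250 bases before 1 annotated start of each are shown, from RefSeq on GRCm38.p6 and 5′ to 3′ on the strand of the gene. RefSeq's promoter table held windows for 8 of the 9 members. Capitals mark matches to TTCNNNGAA, the palindrome that STAT5 binds, and to GTAAACA, a forkhead motif, searched on both strands in windows of 300 bases that begin 250 bases before each start. Of 32851 such windows over all genes, 8.3% held TTCNNNGAA and 3.65% held GTAAACA.
Igf1, chr10:87860861-87861110, plus strand: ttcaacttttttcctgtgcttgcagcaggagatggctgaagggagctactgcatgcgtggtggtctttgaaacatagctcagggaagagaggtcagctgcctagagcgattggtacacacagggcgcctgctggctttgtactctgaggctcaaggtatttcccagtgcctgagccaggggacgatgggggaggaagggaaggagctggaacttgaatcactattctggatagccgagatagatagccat
Igfals, chr17:24877594-24877843, plus strand: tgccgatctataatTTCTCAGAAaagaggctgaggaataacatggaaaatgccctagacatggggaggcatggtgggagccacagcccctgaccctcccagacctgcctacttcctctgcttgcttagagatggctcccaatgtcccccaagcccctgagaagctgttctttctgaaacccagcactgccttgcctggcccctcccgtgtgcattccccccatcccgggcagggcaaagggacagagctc
Ghr, chr15:3583353-3583602, minus strand: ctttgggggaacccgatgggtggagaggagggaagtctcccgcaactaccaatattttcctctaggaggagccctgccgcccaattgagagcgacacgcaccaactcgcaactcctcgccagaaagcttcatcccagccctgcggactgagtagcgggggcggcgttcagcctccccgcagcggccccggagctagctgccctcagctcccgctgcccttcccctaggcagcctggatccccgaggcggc
The Igf1 window and both Ghr windows held neither motif, as did those of Jak2, Stat5a and Stat5b. The windows of Igf1, Stat5a, Stat5b and Socs3 lay inside their annotated genes, so the bases before the outermost starts were not searched. For Igf1 that start is chr10:87858265. Igfals has 3 annotated starts. Its first window held TTCNNNGAA at -236, counted with the first transcribed base as 0, and its second held TTCNNNGAA at -58 and GTAAACA on the opposite strand at -242.
Igfals second window, TTCNNNGAA, chr17:24878165-24878190: gccaggtgTTCCTAGAAgaggccctg
Igfals second window, GTAAACA read on the other strand, chr17:24877981-24878006: gggcagcaTGTTTACctggggtcttt
Among the feedback inhibitors, Cish held 2 TTCNNNGAA matches at its start (first bases 0 and 11) and Socs3 held 1 at -154. These matches are letters in a window and not measured binding.
Cish, chr9:107296655-107296684, plus strand: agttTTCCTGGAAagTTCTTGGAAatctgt
Socs3, chr11:117969503-117969528, minus strand: aaccagccTTCTTAGAAgggaggggg

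Transcripts of Ghr, Igf1 and Igfals were lower in LIRKO livers than in the Cre-free IR floxed livers. In LIRKO against IR floxed livers Igf1 fell by 2.74 ± 0.25 log2 when refed (SE, 6.66-fold lower, adjusted p = 1.54e-08), by 2.45 ± 0.29 after glucose (5.45-fold lower, adjusted p = 4.52e-06) and by 2.41 ± 0.27 when fasted (5.3-fold lower, adjusted p = 1.58e-06). These p-values are from limma's moderated test with Benjamini-Hochberg adjustment over 22485 genes, as are all adjusted p-values below. Igfals fell by 1.89 ± 0.32 refed (adjusted p = 0.00015), by 1.52 ± 0.37 after glucose (adjusted p = 0.0093) and by 1.53 ± 0.35 fasted (adjusted p = 0.00589). Ghr fell by 1.38 ± 0.25 refed (adjusted p = 0.000321), by 0.94 ± 0.29 after glucose (adjusted p = 0.0408) and by 1.55 ± 0.27 fasted (adjusted p = 0.000541). So 3 of the 9 members fell in each state. Of all genes 4.66% were called lower refed, 3.91% after glucose and 3.92% fasted, and 11.6%, 8.3% and 8.06% in either direction.

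The Igf1 differences kept their calls in every fit with 1 library left out. The Ghr difference after glucose was lost with any of 6 libraries left out, at most to an adjusted p of 0.205 without IR.fl_GTT_659. The others were IR.KO_GTT_690 (0.185), IR.KO_GTT_697 (0.114), IR.KO_Refed_558 (0.0519), IR.KO_Refed_553 (0.0501) and IR.fl_Refed_562 (0.0501). Taking the mean over its probes (adjusted p = 0.141) or slide as a block (adjusted p = 0.062) also lost this call. The Igfals difference after glucose was lost without IR.KO_GTT_690 (adjusted p = 0.0733) or IR.fl_GTT_659 (adjusted p = 0.052). Without IR.fl_Refed_566, the refed differences were larger, at -2.99 for Igf1, -2.36 for Igfals and -1.71 for Ghr.

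Livers hybridised on the same array or slide gave the same direction for Igf1. On shared arrays Igf1 was 10.73 in a refed LIRKO and 14.14 in a refed IR floxed liver, 11.24 in a glucose-treated LIRKO and 13.93 in a glucose-treated IR floxed liver, and 10.86 in a fasted LIRKO and 13.90 in a fasted IR floxed liver. Within slides the LIRKO minus IR floxed difference of Igf1 was -3.44, -2.02 and -2.24 refed, -2.69 and -2.21 after glucose and -3.02 and -3.04 fasted. Ghr was -1.75, -0.34 and -1.78 refed, -0.20 and -1.92 after glucose and -2.16 and -1.32 fasted. Igfals was -2.30, -0.63 and -2.26 refed, -0.47 and -2.65 after glucose and -1.58 and -1.86 fasted. All of these within-slide differences were below 0, and the smallest for Igfals and Ghr came from the slides that held IR.fl_Refed_566 and IR.fl_GTT_699.

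The probes of Igf1 did not all agree. Of its 5 probes, 4 that the platform assigns to 1 transcript record gave LIRKO minus IR floxed differences between -1.56 and -3.25 over the 3 states. The remaining probe, assigned to another record, gave -0.16 refed, -0.13 after glucose and -0.61 fasted, and correlated with the leading probe at r = 0.49 over the 37 libraries. The second Ghr probe gave -1.85, -0.78 and -1.65 in the same order of states, beside -1.40, -1.10 and -1.62 for the leading probe. These are differences of plain group means.

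With FoxO1 deleted together with the receptor, the same 3 genes were higher than in LIRKO livers in every state. In LIRFKO against LIRKO livers Igf1 rose by 2.59 ± 0.25 log2 refed (SE, adjusted p = 5.15e-08), 2.43 ± 0.29 after glucose (adjusted p = 3.86e-06) and 2.52 ± 0.29 fasted (adjusted p = 2.34e-06). Igfals rose by 1.61 ± 0.32 refed (adjusted p = 0.0016), 2.18 ± 0.37 after glucose (adjusted p = 0.000436) and 1.94 ± 0.37 fasted (adjusted p = 0.00162). Ghr rose by 1.55 ± 0.25 refed (adjusted p = 0.000154), 1.38 ± 0.29 after glucose (adjusted p = 0.00346) and 1.85 ± 0.29 fasted (adjusted p = 0.000188). The 3 genes rose in each state and none of the 9 fell, while 3.66% of all genes were called higher refed, 3.85% after glucose and 3.29% fasted, and 8.09%, 7.57% and 6.52% were called in either direction. All 9 calls, which are 3 genes in 3 states, held in each of 37 fits with 1 library left out. The LIRFKO and LIRKO libraries did not overlap for these genes, but the share of all genes that separate in this way was not computed. The 2 genotypes come from crosses with different floxed controls.

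**Figure D2:**
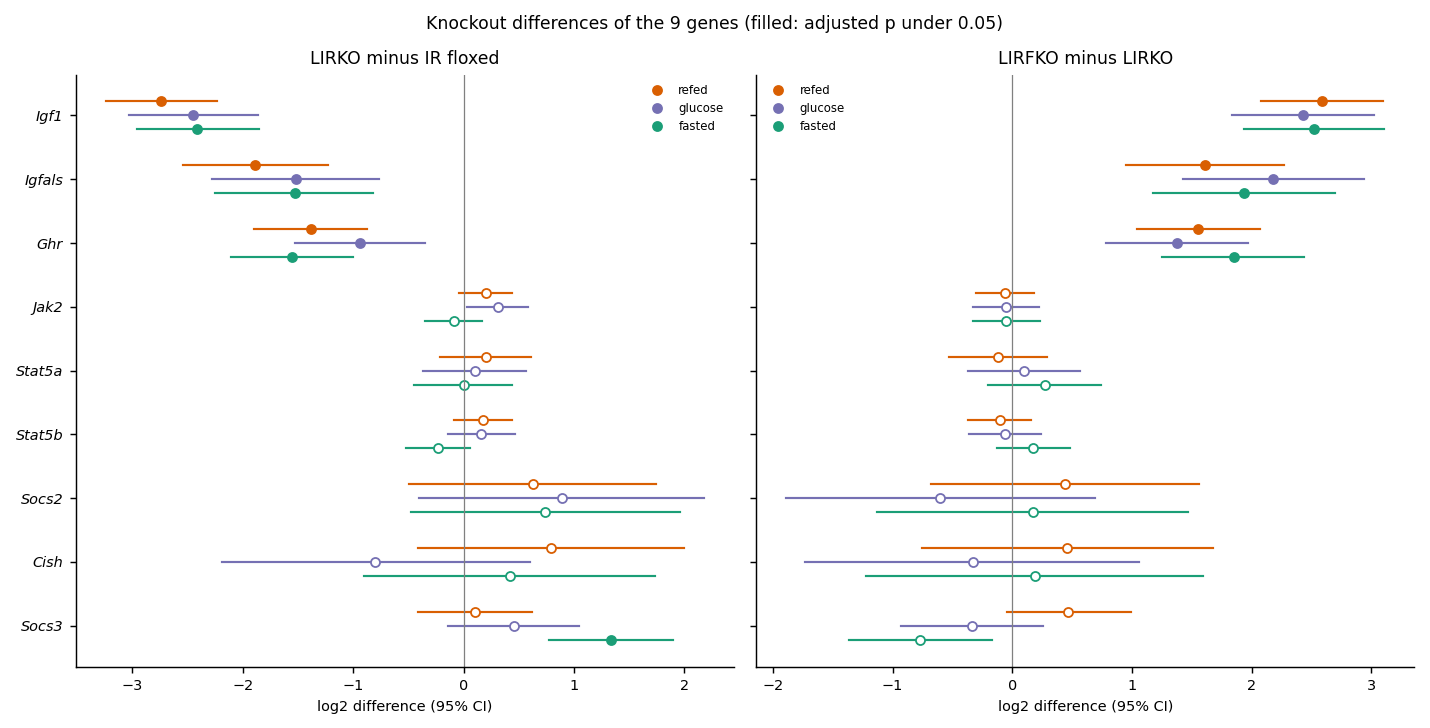
Log2 differences (horizontal axes, with 95% confidence intervals as lines) of the 9 genes (vertical axis) for LIRKO minus IR floxed (left) and LIRFKO minus LIRKO (right), coloured by state, with filled points where the adjusted p is under 0.05. Igf1, Igfals and Ghr lie below 0 on the left and above 0 on the right in all 3 states, and among the other genes the only filled point is fasted Socs3 on the left, at 1.34.

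Against their own floxed controls, LIRFKO livers showed no call among the 9 genes by limma, refed (0.378% of all genes called) or fasted (0.00445%). Unadjusted p was under 0.05 for 2 and 0 members in those states, and for 2333 and 819 of 22485 genes. Refed Ghr was 11.69, 11.76 and 11.91 and fasted Ghr 11.79, 11.51 and 11.97 in IR/FoxO1 floxed livers, and both ranges overlapped with those of LIRFKO livers. Igf1 differed by -0.16 (95% interval -0.74 to 0.41) refed and 0.58 (-0.04 to 1.2) fasted. Igfals differed by -0.88 (-1.62 to -0.14, adjusted p = 0.354) refed and 0.05 (-0.75 to 0.86) fasted, and Ghr by -0.52 (-1.10 to 0.06) refed and 0.08 (-0.55 to 0.71) fasted. Refed Igfals and Ghr leaned lower in LIRFKO livers, and a missing call does not show that levels are equal. Without IRF.fl_Fast_523 the fasted values were 0.54 for Igf1, 0.04 for Igfals and -0.06 for Ghr.

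**Figure D3:**
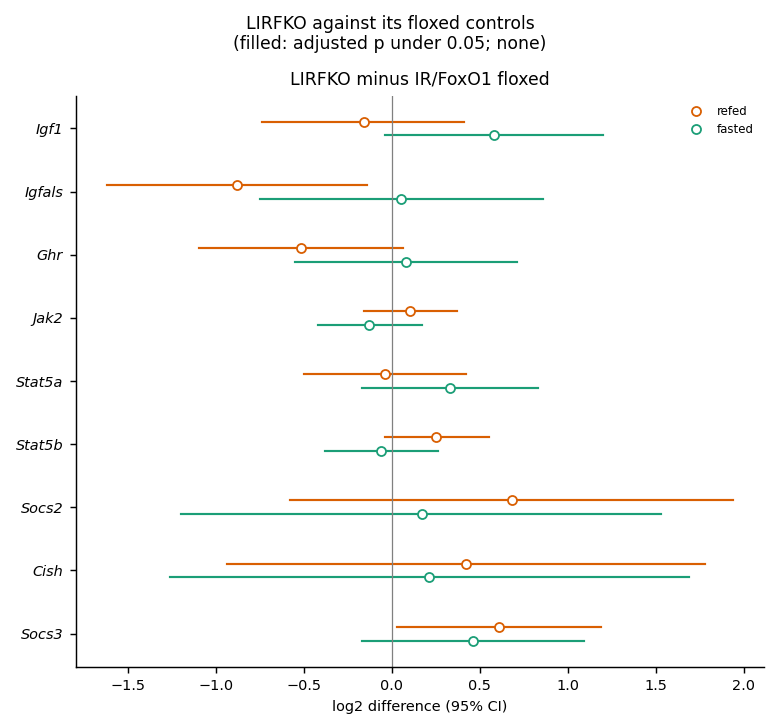
Log2 differences (horizontal axis, lines are 95% confidence intervals) of the 9 genes (vertical axis) in LIRFKO minus IR/FoxO1 floxed livers, refed and fasted. No point is filled, as no adjusted p was under 0.05, and refed Igfals at -0.88 lies farthest from 0.

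The knockout effects of LIRFKO and LIRKO livers were compared as the difference of the 2 effects, each taken against its own floxed controls. No group had FoxO1 deleted alone, so whether the effect of receptor loss depends on FoxO1 was not tested. For Igf1 the LIRFKO effect exceeded the LIRKO effect by 2.57 ± 0.36 log2 refed (SE, adjusted p = 0.000145) and by 2.99 ± 0.38 fasted (adjusted p = 0.000167). For Ghr the difference was 1.63 ± 0.39 fasted (adjusted p = 0.0349) and 0.87 ± 0.37 refed (adjusted p = 0.311), and for Igfals 1.01 ± 0.47 refed (adjusted p = 0.378) and 1.59 ± 0.50 fasted (adjusted p = 0.14). Of all genes 0.458% were called higher refed and 0.449% fasted, and 1.32% and 0.934% in either direction. The fasted Ghr call was lost without any of 6 libraries, at most to an adjusted p of 0.167 without IR.KO_Fast_550. It was 0.124 without IR.fl_Fast_491, 0.0936 without IRF.KO_Fast_518, 0.0907 without IRF.KO_Fast_519, 0.0895 without IRF.fl_Fast_516 and 0.103 without IRF.fl_Fast_523. It was also lost without the array block (adjusted p = 0.0527) and without the dye term (adjusted p = 0.0543). Without IRF.fl_Fast_523 the fasted difference was 2.95 for Igf1 (adjusted p = 0.000495) and 1.57 for Igfals (adjusted p = 0.238). Without IR.fl_Refed_566 the refed differences passed for Igfals (1.68, adjusted p = 0.0132) and Ghr (1.33, adjusted p = 0.0213), as did fasted Igfals (1.58, adjusted p = 0.0282).

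The transducers of the receptor gave no call in any comparison. Jak2 ranged from 7.69 to 8.53 log2 over the 37 libraries, Stat5a from 7.06 to 8.45 and Stat5b from 9.41 to 10.40, with group means spanning 7.88 to 8.35, 7.50 to 7.88 and 9.52 to 10.25. In the refed state Jak2 differed by 0.20 (95% interval -0.04 to 0.44), Stat5a by 0.20 (-0.21 to 0.61) and Stat5b by 0.18 (-0.09 to 0.44) in LIRKO against IR floxed livers. After glucose the Jak2 difference was 0.31 (0.03 to 0.58), an interval that leaves out 0, without passing over all genes (adjusted p = 0.177). Stat5b was 9.41, 9.60 and 9.55 in refed and 10.25, 9.63 and 9.82 in fasted IR/FoxO1 floxed livers, and these groups did not overlap (-0.44 ± 0.15, SE, adjusted p = 0.108). Array signal measures transcript, and the phosphorylation that activates JAK2 and the STAT5 proteins was not measured.

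Socs2 and Cish, direct targets and inhibitors of the pathway, varied widely from mouse to mouse. Socs2 ran from 6.17 to 10.44 and Cish from 6.62 to 10.77 over the 37 libraries. Within 1 group, Socs2 was 9.24, 6.17 and 8.72 in glucose-treated IR floxed livers, and Cish was 8.64, 6.76 and 10.07 in the same mice, with IR.fl_GTT_659 lowest for both. Neither gene passed a test in any of the 24 comparisons. Their LIRKO minus IR floxed differences were 0.63 ± 0.54 and 0.79 ± 0.59 refed (SE), 0.89 ± 0.63 and -0.80 ± 0.68 after glucose and 0.74 ± 0.59 and 0.42 ± 0.64 fasted, for Socs2 and Cish in that order. The intervals are wide, from -0.49 to 1.74 for refed Socs2. The 12 Socs2 probes correlated with the leading one at 0.92 to 0.95, so the spread was shared by all its probes.

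Socs3, the inhibitor that cytokines also induce, was higher in fasted LIRKO livers than in their controls. It was 9.91, 10.20 and 9.02 in fasted LIRKO livers, and 8.21, 8.63, 8.43 and 8.35 in fasted IR floxed livers. The groups did not overlap, and Socs3 rose by 1.34 ± 0.27 log2 (SE, 2.52-fold, adjusted p = 0.0025), as the only member called higher in LIRKO livers, where 4.14% of all genes were called higher. Refed livers had 8.86, 8.67, 8.72 and 8.80 in LIRKO and 8.27, 8.20, 8.64 and 9.09 in IR floxed mice, a difference of 0.10 ± 0.25, and the glucose difference was 0.46 ± 0.29. Fasted LIRFKO livers had 8.75, 8.69 and 9.23, a difference of -0.77 ± 0.29 from LIRKO livers that did not pass (adjusted p = 0.126). Between refed and fasted LIRKO livers Socs3 differed by -1.03 ± 0.29 (adjusted p = 0.061). This passed without IR.KO_Fast_550 (-1.37, adjusted p = 0.0203), without IRF.fl_Refed_473 (-1.07, adjusted p = 0.027) and when only genes above the median level were fitted (-1.02, adjusted p = 0.0375). The difference between that response and the one of IR floxed livers did not pass (-1.23 ± 0.36, adjusted p = 0.215).

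**Figure D4:**
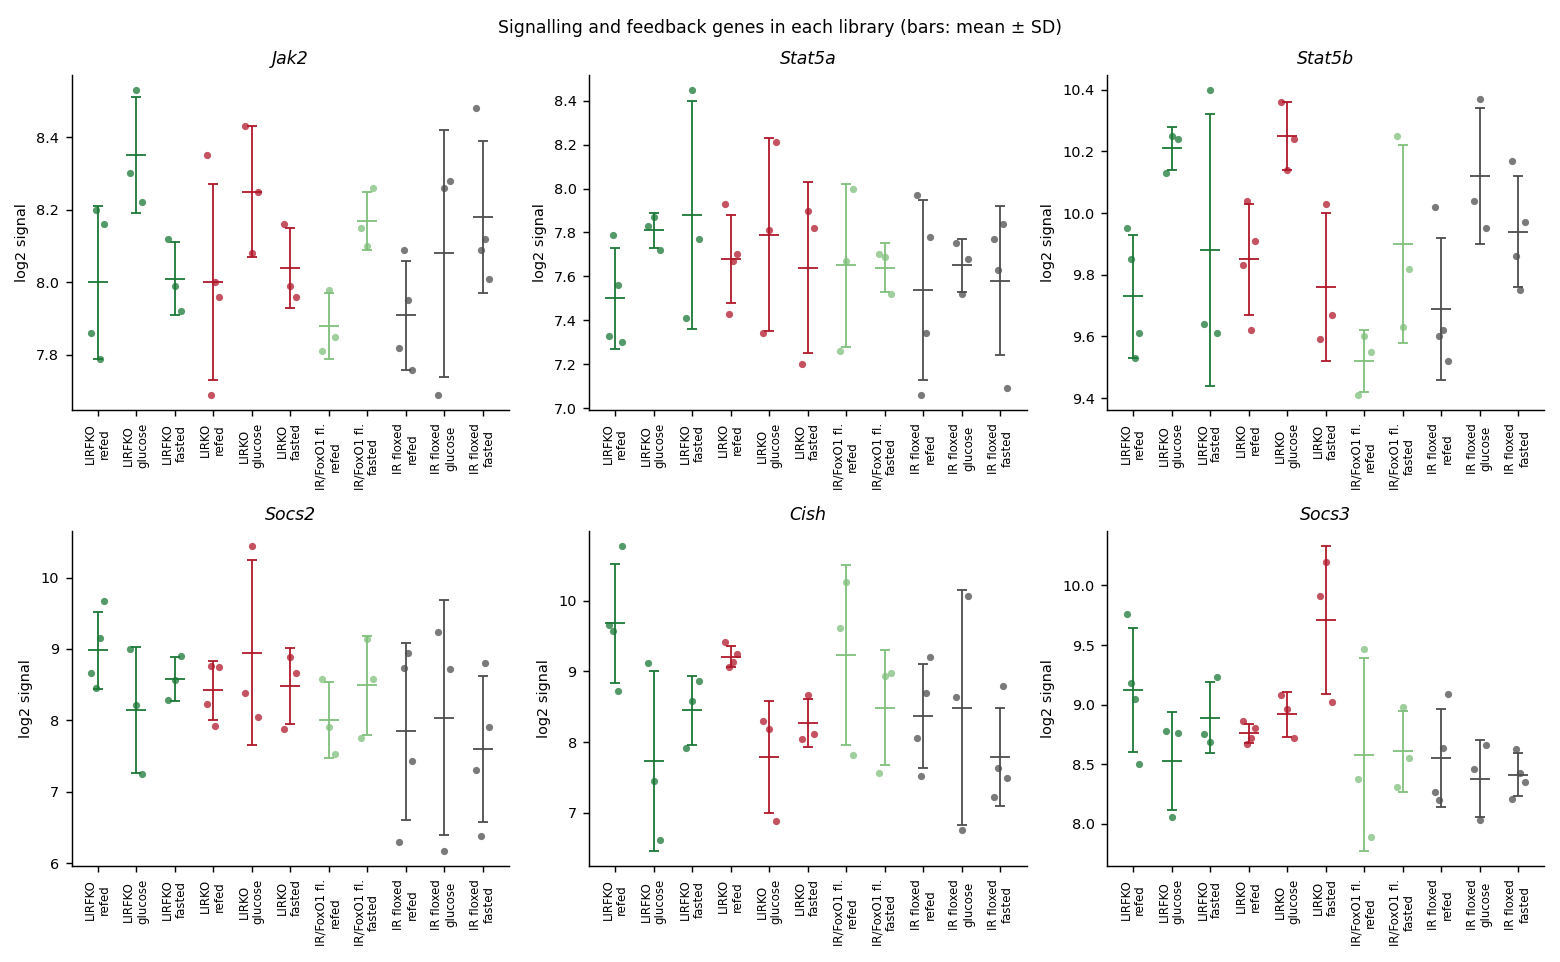
Log2 signal (vertical axes) of Jak2, Stat5a, Stat5b, Socs2, Cish and Socs3 in every library of the 11 groups (horizontal axis), 1 point per mouse, with mean and SD as bars; each gene has its own scale. Socs2 and Cish spread over 4.27 and 4.15 log2, against 0.85 for Jak2, and Socs3 is highest in fasted LIRKO livers, with a mean of 9.71.

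On refeeding Igfals was the only member called, in IR/FoxO1 floxed livers, where it was 9.88, 9.79 and 10.09 refed and 8.44, 9.01 and 9.34 fasted. The groups did not overlap, and Igfals rose by 1.31 ± 0.37 log2 (SE, adjusted p = 0.0441; 2.02% of all genes called higher and 3.54% in either direction). The call was lost in 15 of 37 fits with 1 library left out, up to an adjusted p of 0.213 without IRF.fl_Fast_516, to 0.15 without IRF.fl_Fast_523, and to 0.0579 with slide as a block. On the 1 slide that held both states the difference was 1.07. In IR floxed livers Igfals differed by 1.06 ± 0.32 (adjusted p = 0.0665), and it passed without IR.fl_Refed_566 (1.5, adjusted p = 0.00153). It differed by 0.71 ± 0.37 in LIRKO livers and 0.38 ± 0.34 in LIRFKO livers, and no difference between these responses passed.

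Igf1 differed between refed and fasted livers by 0.14 ± 0.27 log2 in LIRFKO, 0.07 ± 0.28 in LIRKO, 0.89 ± 0.28 in IR/FoxO1 floxed (adjusted p = 0.0891) and 0.40 ± 0.25 in IR floxed mice (SE). With slide as a block the IR/FoxO1 floxed difference passed (0.99, adjusted p = 0.0446), and without IRF.fl_Fast_523 it was 0.83 (adjusted p = 0.269). The refed minus fasted differences of Cish were 1.22 ± 0.63, 0.95 ± 0.68, 1.02 ± 0.68 and 0.57 ± 0.59 in the same order of genotypes, none past the threshold. In LIRFKO, LIRKO and IR floxed livers 0 members were called by limma, beside 1.81%, 1.85% and 3.61% of all genes. Unadjusted p was under 0.05 for 0, 1 and 2 members in that order, and for 3062, 2734 and 3215 of 22485 genes.

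**Figure D5:**
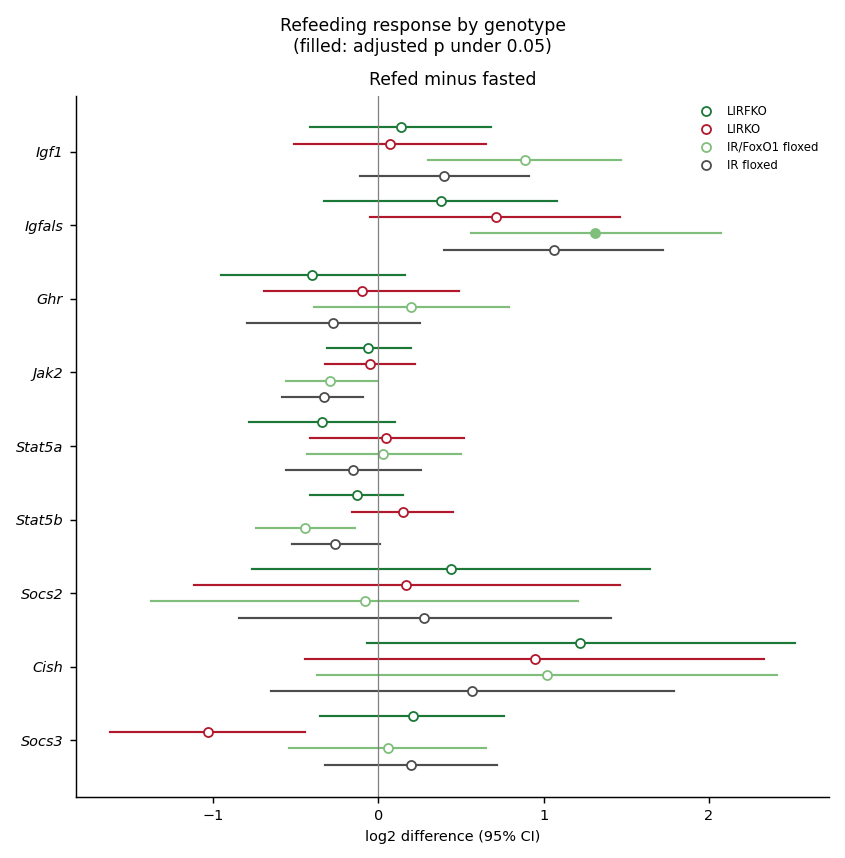
Refed minus fasted log2 differences (horizontal axis, lines are 95% confidence intervals) of the 9 genes (vertical axis) by genotype. The 1 filled point, Igfals in IR/FoxO1 floxed livers at 1.31, is the only one with an adjusted p under 0.05.

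Glucose changed no member by limma after 60 min, with 0.654%, 0.596% and 0.16% of all genes called in LIRFKO, LIRKO and IR floxed livers. Unadjusted p was under 0.05 for 2, 2 and 0 members in that order, and for 2763, 2533 and 1911 of 22485 genes. The smallest adjusted p was that of Stat5b in LIRKO livers, at 10.36, 10.14 and 10.24 after glucose and 9.59, 10.03 and 9.67 fasted (0.56 ± 0.16, SE, adjusted p = 0.0956). The groups did not overlap, and the difference passed without IR.KO_Fast_545 (0.75, adjusted p = 0.0273). Responses to feeding or glucose were also compared between genotypes, and limma called 0 members. For LIRKO against IR floxed livers, unadjusted p was under 0.05 for 2 members for refeeding and 2 for glucose. It was so for 1784 and 1542 of 22485 genes, and 0.165% and 0% of all genes were called. For LIRFKO against LIRKO livers these unadjusted counts were 1 member for refeeding and 0 for glucose. Of all genes they were 1321 and 2007 (0.0222% and 0.0578% called). For LIRFKO against IR/FoxO1 floxed livers they were 0 members for refeeding and 912 of all genes (0.00445% called). The 2 floxed lines differed in no member by limma, refed (0.0845% of all genes called) or fasted (0.0356%). Between those lines unadjusted p was under 0.05 for 1 and 0 members, and for 1374 and 1682 of all genes. The smallest p was that of refed Ghr, at 0.68 ± 0.27 (adjusted p = 0.65) and at 0.20 without IR.fl_Refed_566 (adjusted p = 0.962).

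Of 14 IGF ligands, receptors and carriers besides the members, 2 rose refed, 3 after glucose and 2 fasted in LIRKO livers against IR floxed livers, and 0 fell. Of all genes 6.95% were called higher refed, 4.39% after glucose and 4.14% fasted. Igfbp2, which binds IGFs in serum, rose by 2.12 ± 0.22 log2 refed (SE, adjusted p = 1.93e-07), 1.42 ± 0.26 after glucose (adjusted p = 0.000864) and 1.35 ± 0.24 fasted (adjusted p = 0.000742). Igfbp1, an insulin-repressed carrier, lay at 15.87 or above in every LIRKO library, at the top of the range of the values, so the size of its rise could not be read. Its means were 15.95 in refed LIRKO and 10.29 in refed IR floxed livers. Igfbp3, the carrier in the complex that Igfals completes, differed by 0.07 ± 0.21 refed, -0.01 ± 0.24 after glucose and 0.14 ± 0.23 fasted. In LIRFKO against LIRKO livers Igfbp1 and Igfbp2 fell in all 3 states, Igfbp2 by 1.61 ± 0.22 refed, while 4.43% of all genes were called lower refed, 3.73% after glucose and 3.23% fasted. After glucose Igf2r, a clearance receptor for IGF2, rose in LIRKO livers (0.71 ± 0.21) and Igf1r, the IGF1 receptor, fell in LIRFKO against LIRKO livers (-0.53 ± 0.12).

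Of 25 partners of the receptor in signalling, 22 were measured. In LIRKO against IR floxed livers 3 rose refed, 3 after glucose and 1 fasted, and 0 fell in any state, against 6.95%, 4.39% and 4.14% of all genes called higher. Irs2, an adaptor shared with the insulin receptor, rose in all 3 states, by 1.99 ± 0.26 log2 refed (SE), 2.62 ± 0.30 after glucose and 1.05 ± 0.29 fasted. The membrane protein gene Sirpa rose refed (0.62 ± 0.13) and after glucose (0.71 ± 0.15). The list's median difference was 0.02 refed, 0.01 after glucose and 0.10 fasted, beside 0.00 over all genes. In LIRFKO against LIRKO livers 0 rose and 2 fell refed, 1 rose and 3 fell after glucose, and 0 rose and 3 fell fasted, against 8.09%, 7.57% and 6.52% of all genes called in either direction. Irs2 fell by 1.38 ± 0.26 refed, 1.90 ± 0.30 after glucose and 1.0 ± 0.30 fasted.

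Male-biased liver genes are sustained by the pulsatile growth hormone of male mice, and 18 of a list of 20 were measured. Like all lists here, it was chosen with earlier results of these data known, so its counts are descriptions. In LIRKO against IR floxed livers 11 fell refed, 8 after glucose and 8 fasted, and 0 rose, with medians of -1.53, -1.39 and -1.60 log2, while 4.66%, 3.91% and 3.92% of all genes were called lower. Refed Cyp4a12a differed by -3.97 ± 0.36 (SE), Cyp7b1, a sterol hydroxylase gene, by -3.10 ± 0.41 and the complement gene C6 by -3.30 ± 0.37. Cyp4a12b gave -3.57 ± 0.33, but it and Cyp4a12a are near-identical copies that probes may not separate. In LIRFKO against LIRKO livers 11 rose refed, 6 after glucose and 6 fasted, and 0 fell, while 3.66%, 3.85% and 3.29% of all genes were called higher. In LIRFKO against IR/FoxO1 floxed livers 0 rose and 0 fell in either state, with medians of -0.57 refed and 0.42 fasted. Of 19 measured female-biased genes, 9 rose refed, 5 after glucose and 2 fasted in LIRKO against IR floxed livers and 0 fell, with Cyp2b13 at 2.95 ± 0.41 and Cyp2b9 at 2.54 ± 0.46 refed. Of all genes 6.95%, 4.39% and 4.14% were called higher in those states. In LIRFKO against LIRKO livers 1 rose and 8 fell refed, 3 rose and 1 fell after glucose, and 0 rose and 3 fell fasted, against 8.09%, 7.57% and 6.52% of all genes called in either direction.

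Of 14 measured liver transcription factors tied to the growth hormone response, 2 rose and 4 fell in refed LIRKO livers against IR floxed livers, where 6.95% of all genes were called higher and 4.66% lower. Cux2, a factor characteristic of female liver, rose by 1.55 ± 0.38 log2 (SE) and Trim24 by 0.96 ± 0.24, while Nr3c1, the glucocorticoid receptor, fell by 0.56 ± 0.13 and Hnf4a by 0.42 ± 0.13. Onecut1 and Onecut2 made up the other 2 that fell. After glucose 0 rose and Hnf4a alone fell, and fasted 0 were called, against 8.3% and 8.06% of all genes called. In LIRFKO against LIRKO livers 3 rose and 0 fell refed, namely Foxa3 (0.86 ± 0.23), Onecut1 (0.79 ± 0.24) and Onecut2 (0.57 ± 0.17). After glucose Cebpa (1.14 ± 0.27) and Rxra (0.60 ± 0.16) rose and Foxa1 (-0.89 ± 0.24) fell, and the same 3 genes were called in the same directions fasted. Of all genes 8.09% were called refed, 7.57% after glucose and 6.52% fasted.

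Of 24 genes of the IL6 family and the acute phase, whose receptors share SOCS3 as an inhibitor, 1 rose and 3 fell in fasted LIRKO livers against IR floxed livers, where 4.14% of all genes were called higher and 3.92% lower. The acute phase genes Saa4 (-2.63 ± 0.42 log2, SE) and Crp (-0.93 ± 0.21) and the co-receptor gene Il1rap (-1.46 ± 0.26) fell, and the leptin receptor gene Lepr rose (1.22 ± 0.33). The list's median was -0.24. Refed 1 rose and 3 fell, and after glucose 0 rose and 3 fell, against 11.6% and 8.3% of all genes called in either direction.

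Markers of other liver cells moved with some of these comparisons. In refed LIRKO against IR floxed livers 8 of 9 Kupffer cell and macrophage markers rose, with a median of 1.33 log2, while 6.95% of all genes were called higher. Their summed signal had log2 values of 13.37 to 13.78 in LIRKO and 11.71 to 12.15 in IR floxed livers. In refed LIRFKO against LIRKO livers 7 of the 9 fell, with sums of 12.49 to 12.92 in LIRFKO livers, while 4.43% of all genes were called lower. After glucose 1 of 9 rose in LIRKO against IR floxed livers (4.39% of all genes called higher), and the sums, 12.59 to 13.21 in LIRKO and 11.62 to 12.35 in IR floxed livers, did not overlap either. Fasted 0 of 9 rose (4.14% of all genes called higher), and the sums overlapped (12.54 to 13.26 in LIRKO and 12.23 to 12.63 in IR floxed livers). The summed signal of 7 hepatocyte markers was 16.62 to 17.70 in refed LIRKO and 17.88 to 17.93 in refed IR floxed livers, 17.02 to 17.70 in glucose-treated LIRKO and 17.80 to 18.0 in glucose-treated IR floxed livers, and 17.66 to 17.88 in fasted LIRKO and 17.87 to 18.06 in fasted IR floxed livers. The refed and glucose ranges did not overlap. Of these markers Ttr was the one called refed and fasted, and 2 were called after glucose, while 11.6%, 8.06% and 8.3% of all genes were called in either direction. Of the endothelial, stellate, cholangiocyte, lymphocyte, neutrophil and erythroid lists, at most 2 members were called in any state in either comparison. Over all genes these comparisons called between 6.52% and 11.6%. The part of these shifts in the values of the members was not tested.

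Over the 37 libraries Igf1 and Ghr correlated at r = 0.86, Igf1 and Igfals at 0.77 and Igfals and Ghr at 0.78. Within groups, after each group's mean was taken out, the same pairs gave 0.32, 0.29 and 0.72. The value of 0.72 includes IR.fl_Refed_566, the lowest of its group for both Igfals (7.98) and Ghr (10.24), and was not computed without it. Socs2 and Cish gave 0.50 over the libraries and 0.55 within groups. The libraries share arrays, slides and the authors' normalisation, and the values are descriptions. Like genes were sought only among genes above the median level. Those most like Igf1 over the 37 libraries were Slc10a2 (r = 0.943), Krt80 (0.938) and Ugt2a3 (0.936). Over the 11 group means these gave 0.983, 0.964 and 0.954. Those most like Igfals were Hagh (0.955), Ido2 (0.939) and Hsd3b2 (0.931), with 0.987, 0.974 and 0.953 over group means. Those most like Ghr were Ces1f (0.939), Ldhd (0.925) and Sult2a8 (0.920), with 0.983, 0.969 and 0.966 over group means. Among genes above the median level none tracked Socs2 above r = 0.631 (Gm5731). Socs3 was followed by Myc at 0.683 and by Maff and Rnf39 at 0.618.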

How the data were processed

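Liver RNA of single mice was hybridised to two-colour Agilent arrays, and each dye channel forms a separate deposited sample. The deposited series values are log2 intensities of single channels; that the scale is log2 was inferred from the range of the values and from the use of limma. R 3.1.0 and limma 3.20.1 are named in the submitters' processing notes, while how background and arrays were corrected was not given in the sources used here. Medians of the 38 columns lay between 5.723 and 5.779. Precision is limited by the 3 or 4 mice in a group.

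Through the platform annotation 33026 features had 1 gene, 0 had several and 12194 had none, and the probe with the highest mean stood for each of 22485 genes. A model with a mean for each of 11 groups was fitted to 37 libraries on 20 arrays of 5 slides in limma 3.58.1 (R 4.3.3, statmod 1.5.0). It had a dye term and treated array as a random effect, with a consensus correlation of 0.358. In each of 24 comparisons p was adjusted over all genes after Benjamini and Hochberg, and 0.05 was the threshold. Nothing was filtered on level. Fits with 1 library left out kept that correlation. The fit was tested on simulated data. Other alternatives were the mean over probes, a filter on level, quantile normalisation, slide as a block, no array block, no dye term, another variance model and the fit without IRF.fl_Fast_523. The 9 members and all lists were chosen with earlier results of these data known. Genes of lists are named by smallest p, and genes like a member by the highest Pearson r among genes above the median level, after the dye effect was removed.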

Additional observations from a re-analysis of the deposited data

Results flagged for a closer look

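The refed IR floxed library IR.fl_Refed_566 lay far from the other 3 of its group for Igf1 (12.97, the others between 14.04 and 14.20) and for Ghr (10.24, the others between 11.52 and 11.76). It was also lowest in its group for Igfals, at 7.98, and for Socs2, at 6.30. The check covered 36 combinations of a member and a group of 4 libraries, and the groups hold the same mice for every member. Chance alone would flag about 1 in 20 of these combinations, and the flags for Igf1 and Ghr came from the same library.

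The effect of the knockout differed between the LIRFKO and LIRKO lines for Igf1, by 2.99 log2 fasted and 2.57 refed, and for Ghr, by 1.63 fasted. These are tests of the difference itself, each knockout being taken against its own floxed controls. The Igf1 differences held in each of the fits with 1 library left out, and the Ghr difference did not.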

How the results depend on the processing

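No paired analysis was possible because the mouse numbers, which serve as replicate numbers, differ between all groups; libraries that share an array or a slide are a separate matter, and array was a block in every fit but 1. Of 45 tests of a knockout against its own controls 10 were called, and 8 to 10 with 1 library left out; of 27 tests of LIRFKO against LIRKO 9 were called, and 9 in every such fit. For refed against fasted livers 1 of 36 was called (0 to 2 with 1 library left out); it was 3 among genes above the median level, 0 without the array block, 0 without the dye term and 0 without IRF.fl_Fast_523. Glucose against fasted gave 0 of 27 (0 to 1), the 2 floxed lines 0 of 18 (0 to 0) and differences of effects 3 of 63 (2 to 6). No called difference of a member changed sign in any of these fits. Of the single tests with 1 library left out, 1071 kept their side of the threshold, 29 fell short of it and 10 newly passed. These counts cover only the results called in at least 1 fit, main or alternative. The 1071 include results that were not called in the main fit and stayed so. Over all genes, fitting without the array block lowered the count of calls to 846 (1466 with it) for fasted LIRFKO against LIRKO, 1221 (1866) for glucose LIRKO against IR floxed, 51 (85) for refed LIRFKO against IR/FoxO1 floxed, 2.19% (3.54%) of genes for refeeding in IR/FoxO1 floxed, 219 (407) for refeeding in LIRFKO, 88 (210) for the fasted difference of knockout effects, 5 (37) for the refeeding response of LIRKO against IR floxed, and 43 (147), 20 (134) and 17 (36) for glucose in LIRFKO, LIRKO and IR floxed livers. Without the dye term they were 2.25% of genes for refeeding in IR/FoxO1 floxed, 264 in LIRFKO, 133 for the fasted knockout effects, 9 for the refeeding response, and 59 and 43 for glucose in LIRFKO and LIRKO. With slide as a block they were 269 for refeeding in LIRFKO, 16 for that response and 7 for glucose in IR floxed, and with a trended robust variance 79 for glucose in LIRKO. Without IRF.fl_Fast_523 they were 461 for refeeding in IR/FoxO1 floxed, 129 for the fasted knockout effects, 9 (1 with it) for fasted LIRFKO against IR/FoxO1 floxed and 31 (19) for the refed floxed lines, which fell to 12 without the dye term. The fasted floxed lines gave 8, and 0 to 5 in 7 alternatives; the glucose response of LIRFKO against LIRKO gave 13, and 0 to 8 in 6; the refeeding response gave 5, and 2 to 11 in 5, and 1 against IR/FoxO1 floxed, and 0 in 2. With 3 or 4 mice a group, changes of Socs2 and Cish would have to be large to pass. Signal over background was not used here.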

Other observations

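The library IRF.KO_GTT_724 is labelled glucose in its title and fasted elsewhere, and entered no group. Its log2 signal was 13.69 for Igf1, 9.0 for Igfals, 11.37 for Ghr, 8.48 for Jak2, 7.49 for Stat5a, 9.94 for Stat5b, 9.38 for Socs2, 9.88 for Cish and 9.33 for Socs3. Insr was 6.51 and Foxo1 6.80 in it, as in the libraries labelled LIRFKO.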
